A study of Mus musculus with 21 samples.

Results

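The interleukin-1 (IL-1) family and the genes that process its precursors were followed in sorted mouse inflammatory monocytes (IMs). The 10 genes, Il1a, Il1b, Il1rn, Il18, Il1r1, Il1rap, Il1r2, Il1rl1, Casp1 and Nlrp3, were taken by symbol from the 23420 genes of the count table, and each of the 10 was found. They were read in all 21 libraries, in 5 groups. BM IMs of naïve FVB mice (n = 3) and naïve DBA2 mice (n = 3) served as marrow baselines. Tumor inflammatory monocytes (TIMs) came from primary tumors (n = 5) and lymph node metastases (n = 5) of KAL-LN2-E1 (LN2E1), a line of lung squamous carcinoma placed into the lungs of FVB mice at 500000 cells per mouse. A further set of TIMs (n = 5) came from the lungs of DBA2 mice that had received 300000 cells per mouse of LN4K1, a line derived from KLN-205, by vein. Each model rests on 1 passaged tumor line in a host with its own immune system, and the adult hosts were of both sexes. Marrow and tumor cells were gated as live CD45+ SiglecF- CD11b+ Ly6G- Ly6C hi. The labels name a magnetic enrichment kit before the sort for the TIMs, and whether each marrow library went through it is not given in the sources used here. TIMs were released from tissue by digestion and the baseline came from marrow, so tissue, handling and tumor cannot be told apart in a difference between them. Between the models, strain, line, route and tissue changed together.

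IL-1α and IL-1β both act through the receptor IL1R1, which recruits the accessory chain IL1RAP and signals through MyD88 to NF-κB. The pathway is held in check by the antagonist IL1RN, which occupies IL1R1 without signaling, and by the decoy receptor IL1R2, which binds IL-1 and lacks a signaling domain. IL-1β and IL-18 are made as inactive precursors that caspase-1 cleaves once an inflammasome such as NLRP3 has assembled, and monocytes and macrophages are a well known source of both. RNA counts report the precursor's transcript and not its cleavage or release.

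Total counts per library lay between 80772922 and 101043568, and 3 counts, the limit that a count of 0 allows, came to between 0.0297 and 0.0371 counts per 1000000 (CPM) of these totals. CPM values of genes used library sizes scaled by TMM. All 9 monocyte markers were detected in each group, with summed CPM from 6999 to 8264 in BM IMs and from 11624 to 16764 in TIMs. Of these, Ly6c2, a gene of the sort marker Ly6C, was the only one with lower means in TIMs. It averaged 3023 and 2583 CPM in FVB and DBA2 BM IMs. Its means were 1245, 1337 and 1483 CPM in primary tumor, lymph node and LN4K1 lung TIMs. In the same order, Cd14 averaged 589 and 452 CPM in BM IMs and 4869, 4432 and 2970 CPM in TIMs. Ly6g and Siglecf, genes for 2 proteins of the sort, were looked for and were not in the count table under these symbols. Marker lists of other cells were not at 0. Neutrophil markers (10 genes) summed to between 1509 and 5005 CPM in BM IMs and between 651 and 2340.5 CPM in TIMs. Dendritic cell markers (8 genes, most of the sum from H2-Ab1) summed to between 192 and 249.3 CPM in BM IMs and between 1113 and 5235 CPM in TIMs. Macrophage markers (7 genes, most of the sum from Apoe) summed to between 810 and 2082 CPM in BM IMs and between 2764 and 6220 CPM in TIMs. Single macrophage markers went both ways, and C1qa averaged 7.77 CPM in DBA2 BM IMs and 3.83 CPM in LN4K1 lung TIMs. Because RNA came from bulk sorted cells, fewer cells of a type and less RNA per cell cannot be told apart. LN4K1 lung TIM replicate 3 stood apart from its group, with squamous epithelium markers at 1.27 CPM against 62.9 to 119 CPM in the other 4 libraries. The study's methods speak of technical replicates, and nothing in the labels says that libraries came from separate mice, so p-values measure only the spread between these libraries, which may be technical.

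The 10 genes took up more of the RNA in every TIM library than in any marrow library. They held between 0.0259% and 0.0356% of counts in BM IMs. The share was between 0.2935% and 0.4064% in primary tumor TIMs, between 0.1971% and 0.255% in lymph node TIMs and between 0.1559% and 0.3195% in LN4K1 lung TIMs. Per kilobase of exon, the scale on which different genes can be set beside each other, Casp1 had the highest level of the 10 in BM IMs, at 83.8 ± 14.4 CPM per kb (SD, n = 3) in FVB and 67.2 ± 8.82 CPM per kb (n = 3) in DBA2. Il1b ranked number 4 there, at 4.65 ± 0.611 and 5.44 ± 4.38 CPM per kb. In all 3 TIM groups Il1b ranked first, at 969 ± 181, 573 ± 78.2 and 813 ± 388 CPM per kb (n = 5 each) in primary tumor, lymph node and LN4K1 lung TIMs.

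**Figure D1:**
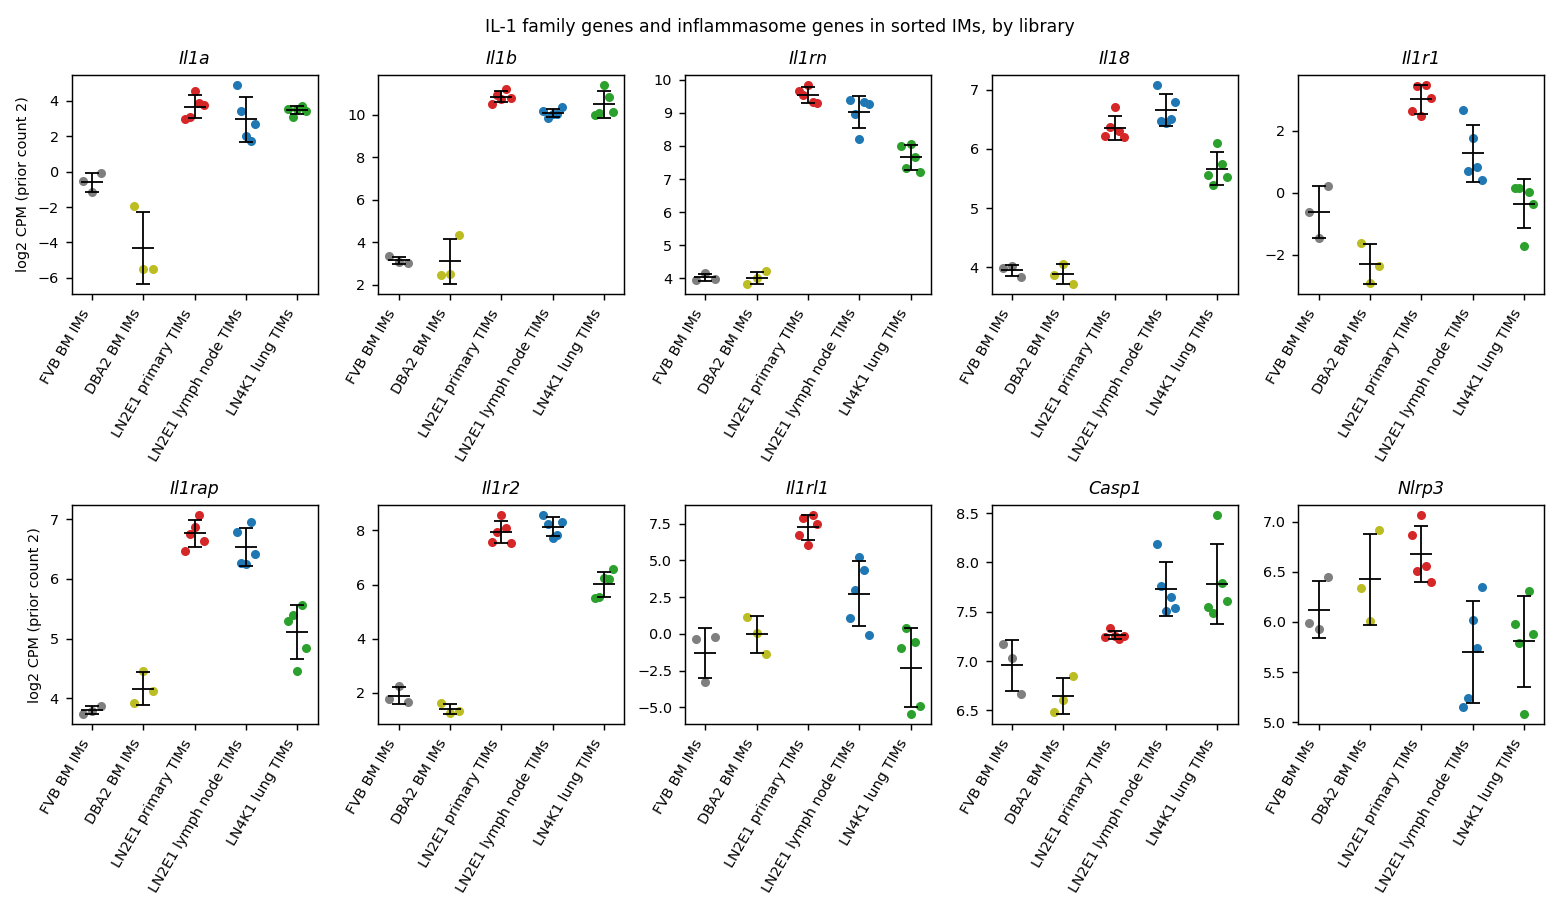
Each panel plots 1 gene, with log2 CPM (prior count of 2) on the vertical axis and the 5 groups on the horizontal axis. Points are libraries and black bars are the mean and SD. Il1b, Il1rn, Il18, Il1r2, Il1a and Casp1 lie higher in every TIM library than in every marrow library. Il1rl1 is high in primary tumors and ranges from 0.938 to 37.7 CPM in lymph nodes, and Nlrp3 overlaps throughout the comparisons with marrow.

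In the GENCODE vM21 annotation of GRCm38 (mm10), Il1b lies on chromosome 2 from 129364570 to 129371139 and Il1a, like it on the reverse strand, from 129299610 to 129309972, with 54.6 kb between them. Il1rn, also on chromosome 2, lies far from both on the forward strand, from 24336853 to 24351494. On chromosome 1, Il1r2 (40074079 to 40125231), Il1r1 (40225080 to 40317257) and Il1rl1 (40429570 to 40465415) follow each other on the forward strand with gaps of 99.8 and 112 kb. Il1rap lies on chromosome 16 from 26581704 to 26730117, Il18 on chromosome 9 from 50554827 to 50581840, Casp1 on chromosome 9 from 5298517 to 5307265 and Nlrp3 on chromosome 11 from 59541568 to 59566956, all on the forward strand and all protein-coding. RefSeq start sites of GRCm38.p6 gave 15 promoter windows for the 10 genes, each from 250 bases before to 50 bases after the start. The 5 below, of both agonists, the antagonist and ST2, are shown because the levels of these genes carry the comparisons that follow. They are printed 5′ to 3′ on the strand of the gene in lower case, with motif matches in capitals. The windows cover chr2:129371090-129371389 (Il1b, reverse strand), chr2:129309923-129310222 (Il1a, reverse strand), chr2:24336610-24336909 (Il1rn, first of 3 start sites, forward strand), chr1:40429320-40429619 and chr1:40439379-40439678 (Il1rl1, its pair of start sites, forward strand).
Il1b: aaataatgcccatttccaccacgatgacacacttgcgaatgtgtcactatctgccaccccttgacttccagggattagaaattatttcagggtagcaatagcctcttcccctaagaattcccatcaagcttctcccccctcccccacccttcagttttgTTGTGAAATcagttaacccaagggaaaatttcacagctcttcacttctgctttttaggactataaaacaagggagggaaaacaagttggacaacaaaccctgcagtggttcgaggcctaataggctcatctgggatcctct
Il1a: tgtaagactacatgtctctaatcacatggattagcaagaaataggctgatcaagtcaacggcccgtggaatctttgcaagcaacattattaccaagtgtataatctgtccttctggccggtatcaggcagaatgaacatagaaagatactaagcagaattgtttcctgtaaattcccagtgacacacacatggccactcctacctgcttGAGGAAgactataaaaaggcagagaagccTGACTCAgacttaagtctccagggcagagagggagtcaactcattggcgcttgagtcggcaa
Il1rn: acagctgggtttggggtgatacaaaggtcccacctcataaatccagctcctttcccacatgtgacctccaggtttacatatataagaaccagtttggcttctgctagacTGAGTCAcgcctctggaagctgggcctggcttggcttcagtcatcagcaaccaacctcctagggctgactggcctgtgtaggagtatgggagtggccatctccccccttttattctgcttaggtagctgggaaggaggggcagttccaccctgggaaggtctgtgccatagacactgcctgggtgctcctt
Il1rl1 start site 1: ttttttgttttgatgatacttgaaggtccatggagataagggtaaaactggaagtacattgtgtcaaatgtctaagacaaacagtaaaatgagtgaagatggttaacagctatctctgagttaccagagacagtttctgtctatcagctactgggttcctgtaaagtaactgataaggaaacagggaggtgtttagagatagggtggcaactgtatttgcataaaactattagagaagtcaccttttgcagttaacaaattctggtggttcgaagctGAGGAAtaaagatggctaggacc
Il1rl1 start site 2: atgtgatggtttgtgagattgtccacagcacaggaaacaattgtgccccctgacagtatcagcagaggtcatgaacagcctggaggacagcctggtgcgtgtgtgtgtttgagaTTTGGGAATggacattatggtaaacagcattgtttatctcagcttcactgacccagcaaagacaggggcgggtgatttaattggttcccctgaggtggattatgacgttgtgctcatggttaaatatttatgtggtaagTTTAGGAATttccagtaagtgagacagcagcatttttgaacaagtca

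The Il1b window held 1 match, the C/EBP letters TTNNGNAAT that began at base -91 from the start. That of Il1a held the AP-1 letters TGANTCA at -12 and the ETS letters GAGGAA, the core that PU.1 reads, at -41, whereas Il1rn start site 1 held the AP-1 letters at -141. For Il1rl1, start site 1 held GAGGAA at base 28 after the start and start site 2 held the C/EBP letters at -136 and at 4. Searched on both strands, the C/EBP letters were in 6 of the 15 windows (40%) and in 11.5% of all 32851 RefSeq windows of the same length. AP-1 letters were in 2 of 15 (13.3%) against 7.81%, and GAGGAA in 4 of 15 (26.7%) against 28.3%. Of 2 forms searched for NF-κB, GGGNNTTCC was in 3 of 15 windows (20%), those of Il1r1 and Nlrp3, against 5.82%, and GGGANTTTC was in 0 of 15 against 1.11%. In the second Il1r1 window the GGGNNTTCC match shared bases with a C/EBP match. The windows of Il1rn start sites 2 and 3 overlap, so the 15 are not independent, and a match describes the letters only.

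Against FVB BM IMs, all 10 genes passed an adjusted p under 0.05 in primary tumor TIMs, each of them higher, where 33.3% of the 14569 genes tested were called higher and 28.6% lower. In lymph node TIMs 8 of 10 were called, all higher, against 20.2% of 13273 genes called higher and 17.2% lower. These 2 comparisons share the FVB marrow libraries. Against DBA2 BM IMs, 7 of 10 were called in LN4K1 lung TIMs, all higher, against 13.9% of 13624 genes called higher and 11.0% lower. The median log2 fold change of the 10 was 3.93, 3.39 and 1.88 in the 3 comparisons, and that of all genes tested was 0.08, -0.04 and 0.03. By the thresholds of the study for a differentially expressed gene (DEG), which ask for an adjusted p below 0.0001 together with a change of more than 1 on the log2 scale, 7 of 10 passed in primary tumors, 5 in lymph nodes and 3 in LN4K1 lungs, beside 12.9%, 5.71% and 2.97% of all genes. DESeq2, the tool of the study, with shrunken fold changes gave 8, 7 and 6 DEGs among them. TIM and marrow libraries did not overlap for 9, 9 and 6 of the 10, beside 58.1%, 42.9% and 34.8% of all genes in either direction. The 3 DEGs in LN4K1 lungs rested on the marrow libraries: there were 1, 0 and 0 DEGs without DBA2 BM IM replicates 1, 2 and 3, although in each of these edgeR fits 6 of the 10 stayed at an adjusted p under 0.05.

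**Figure D2:**
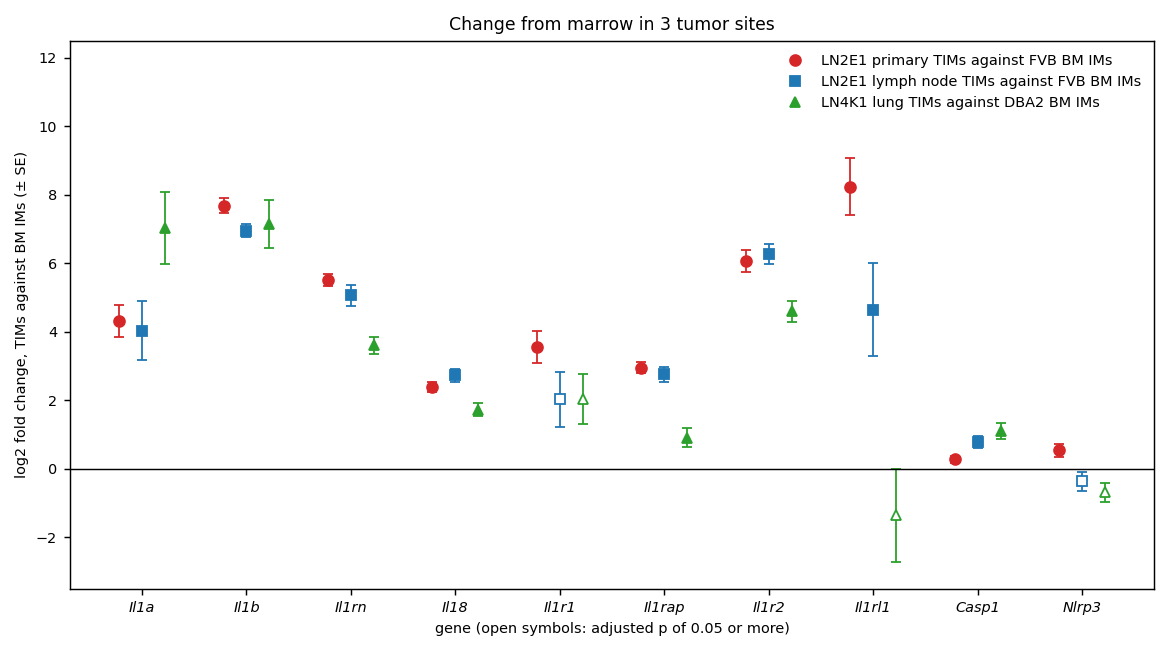
The vertical axis gives the log2 fold change of TIMs against BM IMs of the same strain with its SE, for each gene along the horizontal axis; red circles stand for LN2E1 primary tumors, blue squares for LN2E1 lymph nodes and green triangles for LN4K1 lungs, and open symbols for an adjusted p of 0.05 or more. Il1b lies between 6.95 and 7.68 at all 3 sites, whereas Il1rl1 runs from 8.24 in primary tumors to -1.35 in LN4K1 lungs.

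Il1b, the agonist that needs cleavage, had the highest level in TIMs. It was at 10.2, 8.41 and 7.99 CPM in the 3 FVB BM IM libraries and at 5.48, 5.63 and 20.03 CPM in those of DBA2. In primary tumor TIMs it was at 1456, 1952, 1677, 2376 and 1774 CPM. Every TIM library thus lay far above every marrow library, and lymph node TIMs, at 1139, 923, 1058, 1026 and 1322 CPM, lay below all primary tumor TIMs. LN4K1 lung TIMs were at 998, 1077, 2725, 1841 and 1112 CPM, the highest of them in replicate 3. The fold over marrow was 206 in primary tumors, 124 in lymph nodes and 141 in LN4K1 lungs, on the log2 scale 7.68 (SE 0.22), 6.95 (SE 0.20) and 7.14 (SE 0.71). Each passed as a DEG, and the change in LN4K1 lungs was 6.84 without replicate 3 (adjusted p = 4.46e-05, edgeR). A difference in this change between LN2E1 primary tumors and LN4K1 lungs was not called (interaction 0.56 on the log2 scale, SE 0.56, adjusted p = 0.5). Its exons overlap those of Il1bos on the opposite strand over 25 bases, or 1.31% of their length, and reads carried no strand.

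Il1a encodes the agonist that is active without cleavage and stayed the rarer transcript. FVB BM IMs had 0.659, 0.428 and 0.911 CPM, or 58, 42 and 102 counts, and DBA2 BM IMs had 23, 0 and 0 counts. Primary tumor TIMs were at 7.74, 8.50, 23.3, 14.5 and 13.7 CPM and LN4K1 lung TIMs at 11.6, 8.42, 11.6, 13.2 and 10.7 CPM. In lymph node TIMs the values spread most, with 30.1 CPM in replicate 1 and 10.8, 3.92, 3.33 and 6.37 CPM in the others, and still no TIM library overlapped its marrow. The same lymph node library had the highest summed basophil and mast cell markers, 548 CPM against 95.8 to 159 CPM in the other 4, and their part in its Il1a level was not tested. The log2 fold change was 4.32 (SE 0.47, adjusted p = 4.75e-05) in primary tumors and 4.03 (SE 0.86, adjusted p = 0.00477) in lymph nodes. In LN4K1 lungs the fitted value of 7.04 (SE 1.05, adjusted p = 0.00111) depends on the prior count, since DBA2 replicates 2 and 3 were at 0, and it ran from 1.84 to 12.95 over the alternatives that gave a value, with an adjusted p of at most 0.0268. The interaction of -2.70 was not called (adjusted p = 0.052), but it passed without DBA2 BM IM replicate 1 (adjusted p = 0.000492), LN4K1 lung TIM replicate 3 (-2.69, adjusted p = 0.0499) or primary tumor TIM replicate 3 (-2.99, adjusted p = 0.0391). Exons of Il1a overlap those of Gm14023 on the opposite strand over 222 bases, 11.2% of their length.

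Il1rn, the antagonist, rose together with the agonists. Its marrow levels overlapped between strains, at 15.3, 17.8 and 15.7 CPM in FVB and 14.2, 15.9 and 18.4 CPM in DBA2. Primary tumor TIMs had 810.35, 740.4, 928, 644 and 625.2 CPM. Lymph node TIMs had 664, 502, 295, 647 and 615 CPM, overlapping primary tumors, and LN4K1 lung TIMs 256, 161, 269, 203 and 147 CPM. All 15 TIM libraries were above all 6 marrow libraries. The log2 fold change was 5.51 (SE 0.18, adjusted p = 8.36e-08), 5.06 (SE 0.30, adjusted p = 1.69e-06) and 3.60 (SE 0.26, adjusted p = 1.25e-05) in primary tumors, lymph nodes and LN4K1 lungs. The rise was larger in LN2E1 primary tumors than in LN4K1 lungs, by 1.92 on the log2 scale (adjusted p = 0.000372 for the interaction).

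Il18, the other cytokine that caspase-1 cleaves, rose less than Il1b. It was at 15.8, 16.3 and 14.3 CPM in FVB BM IMs and 14.6, 16.6 and 13.2 CPM in DBA2 BM IMs. Levels were 74.3, 82.1, 104.3, 78.8 and 73.6 CPM in primary tumor TIMs and 136, 89.0, 86.8, 90.2 and 110.15 CPM in lymph node TIMs. LN4K1 lung TIMs had 47.2, 41.9, 68.9, 53.6 and 46.1 CPM, so that no TIM library came down to the marrow range. The changes were 2.40 (SE 0.14, adjusted p = 1.13e-06), 2.73 (SE 0.20, adjusted p = 5e-06) and 1.72 (SE 0.19, adjusted p = 0.000169) on the log2 scale, the first and second of them DEGs. The interaction of 0.70 had an adjusted p of 0.0294, and the call did not survive the removal of any 1 of FVB BM IM replicates 1, 2 and 3, DBA2 BM IM replicates 1 and 2 and primary tumor TIM replicate 4, with adjusted p from 0.0529 to 0.0894 and values from 0.61 to 0.73.

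Within a library, the balance of these ligands moved toward Il1b. The ratio of Il1rn to Il1b, each as CPM with an offset of 0.5, was between 1.48 and 2.05 in FVB BM IMs and between 0.922 and 2.68 in DBA2 BM IMs. It was between 0.271 and 0.557 in primary tumor TIMs, between 0.279 and 0.630 in lymph node TIMs and between 0.0989 and 0.257 in LN4K1 lung TIMs. These ratios are not corrected for length, so they show a shift between groups and not which of the genes was higher. Per kilobase and without an offset, Il1rn was below Il1b in all 21 libraries, at 0.317 to 0.974 times its level in BM IMs of both strains and 0.034 to 0.217 times in TIMs. In plain CPM without an offset it was below Il1b in 16 of the 21. These were all TIM libraries, 1 of 3 DBA2 BM IM libraries and 0 of 3 FVB BM IM libraries. The order of these genes in marrow thus rests on the exon lengths used, 5535 bases for Il1rn and 1907 for Il1b. Other lengths were not tested. In log2 the shift was -2.14, -1.90 and -3.69, each with a two-sided exact permutation p of 0.0179, the smallest that 5 libraries against 3 allow (adjusted over 16 ratio tests, 0.022). Lymph node and primary tumor TIMs differed by 0.24 in this ratio (exact permutation p = 0.421).

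For Il18 to Il1b the log2 shift was -5.24, -4.20 and -5.55 in the same order, again with no overlap and an exact permutation p of 0.0179 each. Lymph node TIMs held relatively more Il18, with ratios from 0.0825 to 0.120 against 0.0334 to 0.0625 in primary tumors. That difference of 1.04 on the log2 scale had an exact permutation p of 0.00794, the smallest that 5 against 5 libraries allow. For Il1a to Il1b the shift was -4.11, -4.01 and -2.96, and lymph node and primary tumor TIMs differed by 0.10 (exact permutation p = 0.889). The shift in LN4K1 lungs depended on the offset added to low CPM values, since 2 of the marrow libraries were at 0. With an offset of 0.1 it was -1.16 (exact permutation, adjusted p = 0.245), and the shifts in primary tumors and lymph nodes were -3.58 and -3.53.

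**Figure D3:**
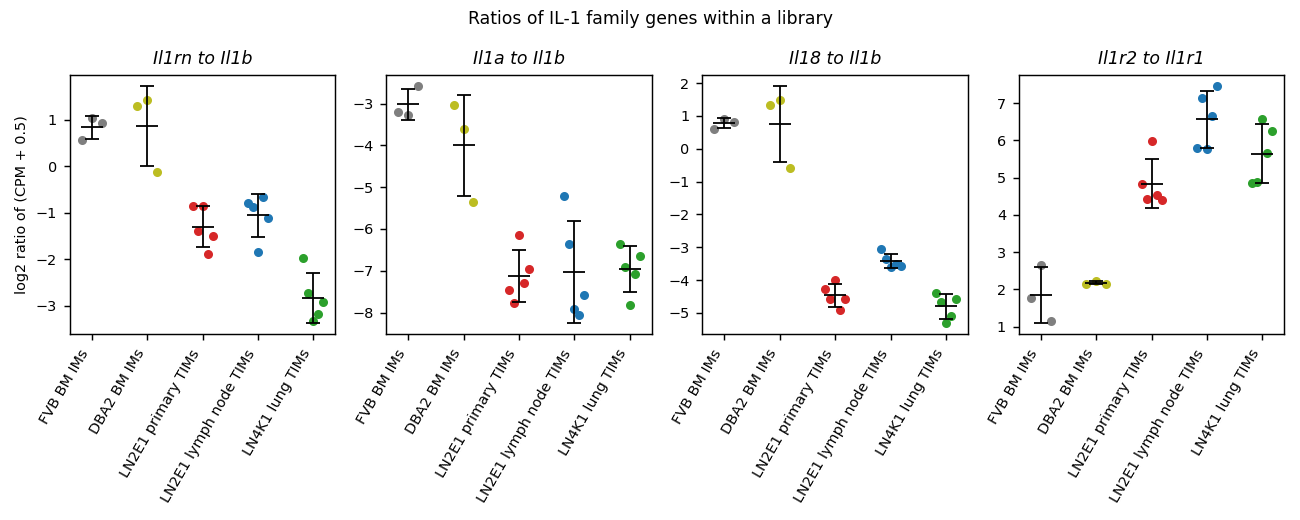
Each panel plots the log2 ratio of 2 genes within a library, from CPM with an offset of 0.5, for the 5 groups; points are libraries and black bars the mean and SD. The ratios are not corrected for gene length; that of Il1rn to Il1b lies lower, and that of Il1r2 to Il1r1 higher, in every TIM library than in every marrow library of its strain.

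Among the receptors, Il1r2, the decoy, had the highest level per kilobase in all 3 TIM groups. Marrow held little of it, 3.35, 4.75 and 3.18 CPM in FVB and 3.04, 2.35 and 2.48 CPM in DBA2. Primary tumor TIMs were at 190.4, 247, 378, 275 and 187 CPM. Lymph node TIMs, at 382, 298, 212, 227 and 318 CPM, overlapped these, and LN4K1 lung TIMs were lower at 45.3, 46.9, 74.8, 74.5 and 94.8 CPM, still above all marrow libraries. The log2 fold change was 6.07 (SE 0.33, adjusted p = 6.84e-07), 6.26 (SE 0.29, adjusted p = 4.8e-07) and 4.60 (SE 0.31, adjusted p = 8.01e-06), a DEG at each site. The rise was larger by 1.49 in LN2E1 primary tumors than in LN4K1 lungs (adjusted p = 0.00911 for the interaction). Neutrophils also express this decoy. Of their markers, Camp and Ngp averaged 528 and 1326 CPM in marrow of FVB mice against 2.25 and 8.78 CPM in primary tumors, while Cxcr2 averaged 2.12 CPM against 27.3 CPM, and the part of neutrophil RNA in the Il1r2 level was not tested.

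Il1r1, the receptor that signals, remained rare. FVB BM IMs had 0.6251, 0.336 and 1.15 CPM and DBA2 BM IMs 0.298, 0.110 and 0.169 CPM, the last 3 from 29, 11 and 16 counts. Primary tumor TIMs had 6.17, 10.999, 5.52, 11.3 and 8.32 CPM, apart from all other groups except for 1 lymph node library. That library was lymph node replicate 1 at 6.32 CPM, beside 1.62, 3.37, 1.76 and 1.32 CPM in the others, and LN4K1 lung TIMs were at 1.09, 1.10, 0.284, 0.983 and 0.747 CPM, overlapping their marrow. The change was called in primary tumors (3.55, SE 0.46, adjusted p = 0.000134) and not in lymph nodes (2.03, SE 0.81, adjusted p = 0.0768) or LN4K1 lungs (2.05, SE 0.73, adjusted p = 0.0688). Without LN4K1 lung TIM replicate 3 the last was 2.27 with an adjusted p of 0.0141, and DESeq2 called it in lymph nodes (adjusted p = 0.0192) and in LN4K1 lungs (adjusted p = 0.0101). The interaction of 1.52 was not called (adjusted p = 0.118) except without FVB BM IM replicate 3 (2.10, adjusted p = 0.0391). Per kilobase and without an offset, the level of the decoy was 9.20 to 47.1 times that of the signaling receptor in FVB BM IMs, 74.9 to 228 times in primary tumor TIMs and 201 to 804 times in lymph node TIMs. It was 34.0 to 71.6 times in DBA2 BM IMs and 139 to 879 times in LN4K1 lung TIMs. With an offset of 0.5 CPM the log2 ratio shifted from marrow by 2.98, 4.71 and 3.47, with an exact permutation p of 0.0179 each, and lymph node TIMs were above primary tumor TIMs by 1.73 (exact permutation p = 0.0238, adjusted 0.0272) with overlap. With an offset of 0.1 these shifts were 2.54, 4.43, 2.95 and 1.89.

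Il1rap, the chain shared by the receptors for IL-1 and IL-33, rose strongly in the LN2E1 tissues. It was at 13.3, 13.8 and 14.7 CPM in FVB BM IMs and at 15.05, 22.0 and 17.3 CPM in DBA2 BM IMs. Primary tumor TIMs were at 88.7, 108, 116, 134 and 99.8 CPM and lymph node TIMs at 109.5, 76.9, 76.0, 124 and 84.9 CPM, both far from marrow. In LN4K1 lung TIMs the values of 39.3, 42.1, 21.9, 47.2 and 28.8 CPM reached down to the marrow range in replicate 3 alone. The log2 fold change was 2.95 (SE 0.15, adjusted p = 5.19e-07) in primary tumors, 2.76 (SE 0.21, adjusted p = 8.23e-06) in lymph nodes and 0.91 (SE 0.27, adjusted p = 0.0333) in LN4K1 lungs. The last call was lost without any 1 of DBA2 BM IM replicates 1, 2 and 3 or LN4K1 lung TIM replicates 1, 2 and 4 (0.79 to 1.07, adjusted p 0.0546 to 0.127), and without LN4K1 replicate 3 it was 1.05 with an adjusted p of 0.00269. The difference between the models, 2.06 on the log2 scale, had an adjusted p of 0.00051. Exons of Gm20319 on the opposite strand cover 552 bases, 4.86% of those of Il1rap.

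Il1rl1 encodes ST2, the receptor for IL-33, and showed the widest differences between sites. Marrow was low in both strains, at 66, 8 and 92 counts (0.750, 0.0815 and 0.822 CPM) in FVB and 217, 104 and 35 counts (2.23, 1.04 and 0.370 CPM) in DBA2. Primary tumor TIMs had 9657, 20917, 5632, 24743 and 15112 counts, or 104.0, 236, 65.5, 273 and 176 CPM. Lymph node TIMs had 2.11, 7.79, 37.7, 20.6 and 0.938 CPM, all below the lowest primary tumor library and all above FVB marrow. LN4K1 lung TIMs had 43, 123, 0, 64 and 1 counts and overlapped DBA2 marrow. On the log2 scale the gene rose by 8.24 (SE 0.84, adjusted p = 3.85e-05), or 303-fold, in primary tumors and by 4.64 (SE 1.36, adjusted p = 0.0225) in lymph nodes. In LN4K1 lungs it was at -1.35 (SE 1.36, adjusted p = 0.522) and without replicate 3 at -1.03 (adjusted p = 0.482). The interaction of 9.59 was called (adjusted p = 0.000439), and without LN4K1 replicate 3 it was 9.29 (adjusted p = 0.000253). The lymph node call was lost without FVB BM IM replicate 1, 2 or 3 (4.13 to 5.06, adjusted p 0.0527 to 0.0712).

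Markers of other cells were set beside Il1rl1. The 8 fibroblast and endothelium markers summed to 561, 968, 392, 1047 and 663 CPM in primary tumor replicates 1 to 5, to between 67.6 and 172 CPM in lymph node TIMs, to between 6.90 and 49.0 CPM in LN4K1 lung TIMs and to between 9.435 and 15.3 CPM in BM IMs. Ordered by these sums, the 5 primary tumor libraries stood in the same order as by Il1rl1 and as by Il1r1, and so did the 3 FVB BM IM libraries. In lymph node TIMs 1 of 5 libraries held the same rank for Il1rl1 and 0 of 5 for Il1r1, in LN4K1 lung TIMs 3 of 5 and 1 of 5, and in DBA2 BM IMs 0 of 3 and 1 of 3. The part of stroma in either receptor was not tested. Markers of basophils and mast cells, cells known for ST2, summed to between 249.9 and 302 CPM in FVB BM IMs. In primary tumor TIMs the sum was between 83.3 and 169 CPM, and single markers went both ways. Prss34 averaged 158 CPM in FVB BM IMs and 0.298 CPM in primary tumor TIMs, and Hdc 15.8 and 105 CPM. Tpsab1 had at most 4 counts in FVB BM IMs and at most 483 counts in primary tumor TIMs. ILC2 and T cell markers summed to between 5.50 and 7.06 CPM in FVB BM IMs and between 34.5 and 54.5 CPM in primary tumor TIMs. In the latter, Il13 had no more than 4 counts and Gata3 no more than 54 counts in any library, against at most 5 and 97 counts in FVB BM IMs. Other markers of the list rose. Il7r, Cd4 and Cd8a averaged 0.626, 0.977 and 0.0140 CPM in FVB BM IMs and 20.6, 7.60 and 8.00 CPM in primary tumor TIMs. The part of the cells of either list in the Il1rl1 level was not tested.

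**Figure D4:**
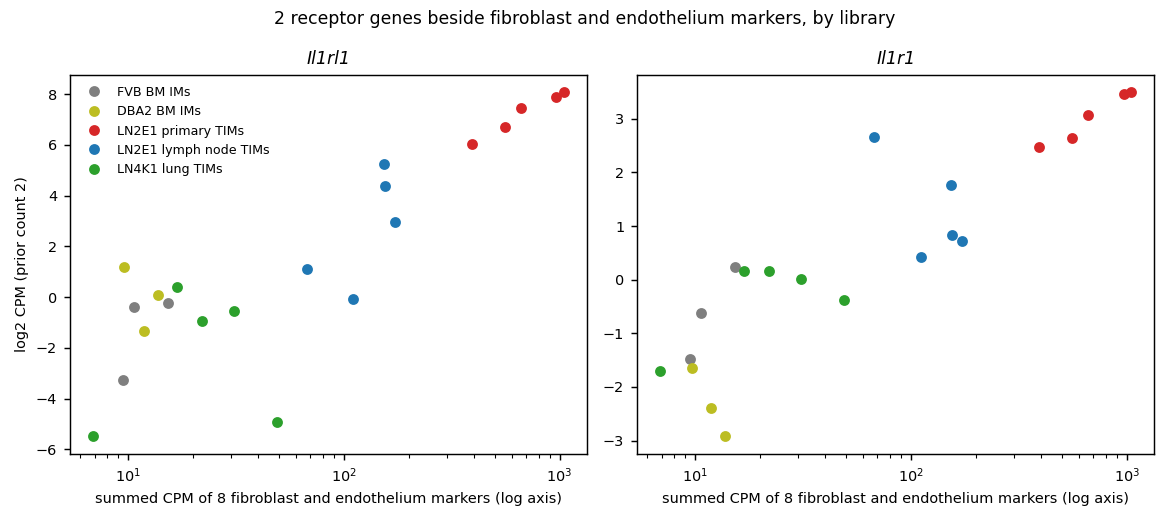
The horizontal log axis gives the summed CPM of 8 fibroblast and endothelium markers and the vertical axis the log2 CPM of Il1rl1 (left) or Il1r1 (right), with 1 point per library and 1 color per group. The 5 primary tumor libraries lie farthest right and stand in the same order on both axes, from 392 to 1047 CPM of markers.

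Casp1, the protease that cleaves the precursors of IL-1β and IL-18, had a smaller log2 fold change than Il1b and Il18 at all 3 sites. Marrow libraries were at 144, 131 and 102 CPM in FVB and 89.4, 97.4 and 115 CPM in DBA2. Primary tumor TIMs lay close together at 152, 161, 152, 149 and 153 CPM, just above FVB marrow. Lymph node TIMs had 291, 217, 182, 201 and 186 CPM and LN4K1 lung TIMs 187, 179.75, 358, 221 and 196 CPM, clear of marrow. The log2 fold change was 0.27 (SE 0.11, adjusted p = 0.0446), 0.78 (SE 0.19, adjusted p = 0.00812) and 1.10 (SE 0.24, adjusted p = 0.0087). The first call was lost without any 1 of the 8 libraries other than FVB BM IM replicate 1 (0.16 to 0.32, adjusted p 0.0634 to 0.107). LN4K1 lung TIM replicate 3 was the high library, and without it the change there was 0.88 with an adjusted p of 0.00028. The rise was smaller in LN2E1 primary tumors than in LN4K1 lungs, at -0.81 (adjusted p = 0.0315 for the interaction). That call was lost without FVB BM IM replicate 1 or 2 or DBA2 BM IM replicate 1 or 2 (-0.79 to -0.73, adjusted p 0.0721 to 0.08).

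Nlrp3, the sensor on which the inflammasome is built, overlapped marrow at all 3 sites. It was at 63.6, 60.8 and 87.3 CPM in FVB BM IMs and 81.0, 64.6 and 121 CPM in DBA2 BM IMs. Primary tumor TIMs were at 117, 91.0, 134, 94.4 and 84.3 CPM, and lymph node TIMs at 35.6, 37.7, 64.9, 53.5 and 81.3 CPM. LN4K1 lung TIMs had 63.2, 55.5, 33.8, 79.2 and 58.9 CPM. The change was 0.54 (SE 0.19, adjusted p = 0.0317) in primary tumors, and this call was lost without FVB BM IM replicate 1 or 2 or primary tumor TIM replicate 1 or 3 (0.42 to 0.50, adjusted p 0.0536 to 0.0883). It was -0.37 (SE 0.28, adjusted p = 0.332) in lymph nodes and -0.69 (SE 0.27, adjusted p = 0.0975) in LN4K1 lungs. The interaction between the models was 1.24 (adjusted p = 0.0197), lost without FVB BM IM replicate 1 or 2 or DBA2 BM IM replicate 3 (0.96 to 1.14, adjusted p 0.0598 to 0.0711).

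Lymph node TIMs were then compared with primary tumor TIMs of the same line and strain. Of the 10 genes, 1 was called higher and 4 lower in lymph nodes, beside 6.15% and 5.55% of the 13488 genes tested, and 0 passed as a DEG, beside 0.0297% of all genes. With DESeq2 also 0 were DEGs and 5 were called, and 6 of the 10 had an unadjusted p under 0.05 in edgeR. Il1b was lower by 0.75 (SE 0.14, adjusted p = 0.00578) with no overlap, Il1rl1 lower by 3.62 (SE 0.88, adjusted p = 0.0218) with no overlap and Nlrp3 lower by 0.92 (SE 0.23, adjusted p = 0.0246) with no overlap. Casp1 was higher by 0.50 (SE 0.12, adjusted p = 0.0236), also with no overlap, and Il1r1 lower by 1.55 (SE 0.46, adjusted p = 0.0499) with overlap. The share of all genes without overlap between these TIM groups is not given here, so the lack of overlap does not set these genes apart from others. Il1rn at -0.45 (adjusted p = 0.192), Il18 at 0.32 (adjusted p = 0.199), Il1a at -0.31, Il1rap at -0.20 and Il1r2 at 0.18 were not called. The 5 calls became 2 without primary tumor TIM replicate 1 or 4 or lymph node TIM replicate 2, and 3 without primary tumor TIM replicate 2, 3 or 5. The call for Il1b withstood leaving out any single library but not a fit of all 5 groups together (-0.76, adjusted p = 0.105). That for Il1rl1 was lost without primary tumor TIM replicate 4 or lymph node TIM replicate 2 (adjusted p 0.0516 to 0.0543), that for Casp1 without primary tumor TIM replicate 1, 2, 4 or 5 (0.0502 to 0.0706), and that for Nlrp3 without primary tumor TIM replicate 1 or 3 or lymph node TIM replicate 2 (0.0509 to 0.0574). Il1r1 lost it in 9 of 10, all but the fit without lymph node TIM replicate 1 (-1.67 to -1.36, adjusted p 0.0571 to 0.13).

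The marrow baselines of the strains were compared to see what a difference between the models could owe to them. Of the 10 genes, 0 were called between DBA2 and FVB BM IMs in edgeR, and 1 had an unadjusted p under 0.05, beside 11.5% of the 12905 genes tested called higher and 9.57% lower. Libraries of the strains still did not overlap for Il1a, Il1r1 and Il1r2, lower in DBA2, and for Il1rap, higher in DBA2. The share of all genes without overlap between the strains is not given here. DESeq2 also called 0. The fitted differences of the rare genes were nonetheless not small, with Il1a at -3.04 (adjusted p = 0.187) and Il1r1 at -1.85 (adjusted p = 0.137). Without FVB BM IM replicate 3 Casp1 was called lower in DBA2 (-0.41, adjusted p = 0.0255), and without DBA2 BM IM replicate 1, the only one of its group with Il1a counts, Il1a was called lower as well (adjusted p = 0.0205). The change from marrow differed between LN2E1 primary tumors and LN4K1 lungs for 7 of the 10 genes, 6 with the larger value in primary tumors and 1, Casp1, with the smaller, beside 13.2% and 13.3% of the 15182 genes tested. Without FVB BM IM replicate 1 or replicate 2 the number was 4.

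Other genes of the pathway were counted from 3 lists. Of 17 other ligands and receptors, 13 were in the table and 7 could be tested. Of these 7, 3 rose and 1 fell in primary tumors, 2 rose and 1 fell in lymph nodes, and 4 rose and 1 fell in LN4K1 lungs, with a median log2 fold change of 1.52, 0.28 and 2.23, which holding low marrow genes at their lower bound did not move. All genes tested were called higher in 33.3%, 20.2% and 13.9% and lower in 28.6%, 17.2% and 11.0% at these sites, and none of the 3 lists was tested against those shares. Il18bp, the soluble inhibitor of IL-18, was a DEG at all 3 sites, with mean levels of 2.10 CPM in FVB marrow, 68.5 and 105 CPM in the LN2E1 tissues, 0.884 CPM in DBA2 marrow and 19.3 CPM in LN4K1 lungs (log2 fold changes 5.01, 5.65 and 4.37). Il18rap, the accessory chain of the IL-18 receptor, was a DEG in primary tumors (3.90) and was called in lymph nodes (3.39) and LN4K1 lungs (2.23). Sigirr, a receptor that dampens IL-1 signaling, was the gene that fell (-0.71, -0.90 and -0.60). It is no DEG and is named after its values were seen, as are Il33, Gsdmd and Pycard.

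Il33, the ligand of ST2, had 0 counts in all 3 FVB BM IM libraries and between 202 and 1248 counts in primary tumor TIMs, at least 274-fold higher on group means against a floor of 3 counts per marrow library. In lymph node TIMs it had between 0 and 114 counts, and in LN4K1 lung TIMs between 128 and 1106 counts against 0 to 15 in DBA2 BM IMs. Stroma is a known source of Il33, and the marker sums for fibroblasts and endothelium given above for these libraries were not tested for their part in it.

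Of the 20 signaling genes, 11 rose and 2 fell in primary tumors, 7 rose and 2 fell in lymph nodes, and 4 rose and 0 fell in LN4K1 lungs, with medians of 0.49, 0.52 and 0.23. The shares of all genes, in the same order, were 33.3%, 20.2% and 13.9% called higher and 28.6%, 17.2% and 11.0% called lower. Myd88, the adaptor of the IL-1 receptor, averaged 186 CPM in FVB marrow, 586 and 603 CPM in the LN2E1 tissues, 207 CPM in DBA2 marrow and 671 CPM in LN4K1 lungs (1.63, 1.70 and 1.62). Peli1, a ubiquitin ligase of the pathway, rose by 1.63, 2.04 and 1.27, and Map3k8, a kinase that relays to ERK, by 1.02, 1.37 and 1.51. Each of these 3 was a DEG in both LN2E1 comparisons and was called without being a DEG in LN4K1 lungs.

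Of 17 genes for processing and release, 16 were tested, and 7 rose and 5 fell in primary tumors, 4 rose and 5 fell in lymph nodes and 6 rose and 4 fell in LN4K1 lungs, with medians of 0.10, -0.04 and -0.21. These counts stand beside 33.3%, 20.2% and 13.9% of all genes called higher and 28.6%, 17.2% and 11.0% called lower. Casp4, which the mouse uses to sense lipopolysaccharide inside the cell, was a DEG at all 3 sites (2.08, 2.38 and 2.04). Gsdmd, the pore through which mature IL-1β leaves, was called at each site with 0.67, 0.61 and 0.42, and Pycard, the adaptor between NLRP3 and caspase-1, fell in the LN2E1 tissues (-0.70 and -0.60) and rose in LN4K1 lungs (0.40). The genes that fell most were serine proteases of granules, which can cut IL-1 precursors outside the cell, and an inhibitor of them. Elane averaged 484 CPM in FVB marrow and 1.31 CPM in primary tumors, with changes of -8.55, -9.00 and -4.67 at the 3 sites. Ctsg changed by -6.33, -4.58 and -4.36, Prtn3 by -3.48, -4.11 and -2.14 and the inhibitor Serpinb1a by -2.50, -2.76 and -1.62. Beside these, 10 neutrophil markers summed to between 3943 and 5005 CPM in FVB BM IMs. In primary tumor TIMs the sum was between 1111 and 2122 CPM and in lymph node TIMs between 651 and 1117.5 CPM. It was between 1509 and 2089 CPM in DBA2 BM IMs and between 1454 and 2340.5 CPM in LN4K1 lung TIMs. Single markers went both ways. From FVB BM IMs to primary tumor TIMs, Ngp went from 1326 to 8.78 CPM on average and Mmp8 from 436 to 613 CPM. The 7 eosinophil markers summed to between 463 and 1256 CPM in BM IMs and to between 5.87 and 77.1 CPM in TIMs, and the part of either was not tested.

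**Figure D5:**
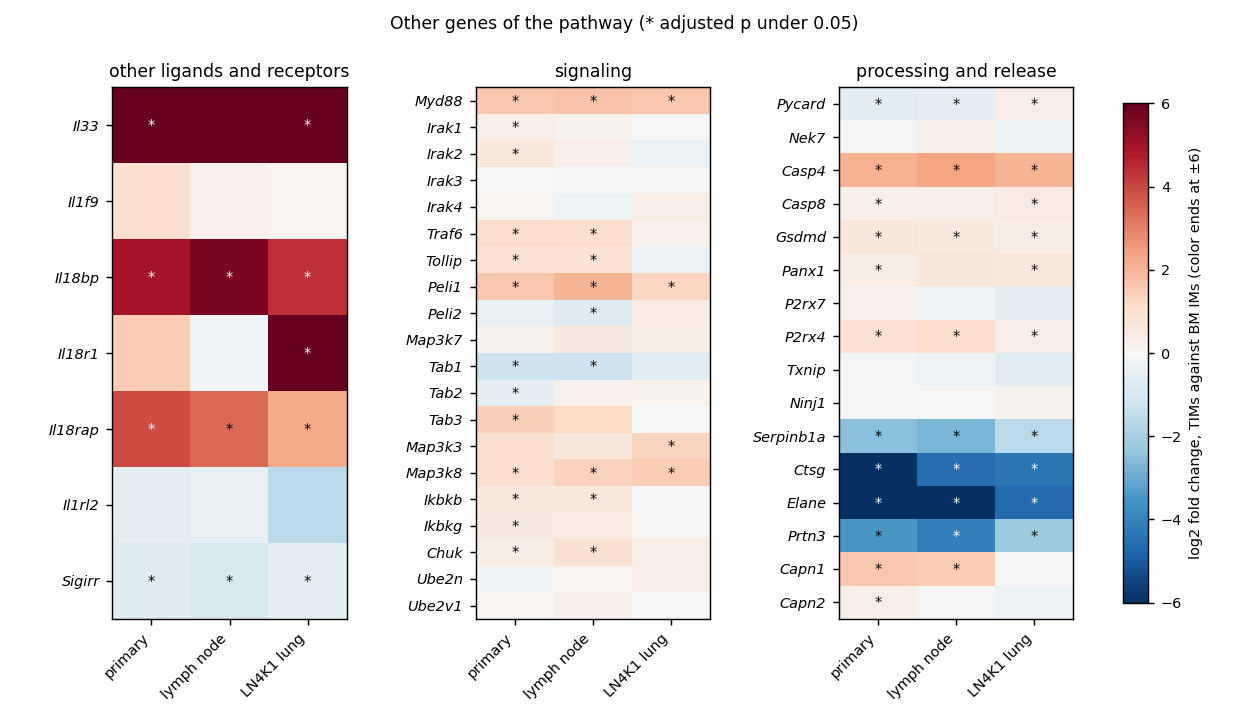
Color gives the log2 fold change of TIMs against BM IMs of the same strain (ends at ±6) for each tested gene of 3 lists, in primary tumors, lymph nodes and LN4K1 lungs from left to right, and an asterisk an adjusted p under 0.05. Il18bp, Il18rap, Myd88, Peli1, Map3k8 and Casp4 are red at all 3 sites and Serpinb1a, Ctsg, Elane and Prtn3 are blue; the color of Il33 in the LN2E1 tissues and of Il18r1 in LN4K1 lungs is no measure of size, since their marrow libraries held at most 1 count.

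The genes whose pattern over the 21 libraries was most like that of Il1b were Gcnt2 (Pearson r of log2 CPM 0.977), Igfbp6 (0.977), Cmklr1 (0.975) and Il13ra1 (0.974), among 9948 genes compared. Those most like Il1rl1 were Axl (0.917), Ppfibp1 (0.912), Twsg1 (0.912) and Ctnnb1 (0.8997). Axl, a receptor tyrosine kinase, was at 26.0 CPM in FVB BM IMs, 135 CPM in primary tumor TIMs, 59.4 CPM in lymph node TIMs and 31.7 CPM in LN4K1 lung TIMs. These values describe likeness across groups and libraries that share preparation, and carry no test. Among the 10 genes themselves, Il1r2 and Il18 were most alike across all libraries (r = 0.99) and Casp1 and Nlrp3 least (r = -0.64). After group means were removed, Il1r2 and Il18 were at 0.64 and Casp1 and Nlrp3 at -0.58.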

How the data were processed

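RNA of sorted BM IMs and TIMs was amplified with a SMARTer ultra-low input kit, tagged with Nextera XT without strand and sequenced. The authors trimmed reads with BBDuk, aligned them to mm10 (GRCm38) with BBMap and deposited whole-number counts per gene from featureCounts 1.5.2, not normalized. SAMtools 1.8 is named in the submitters' processing notes.

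Counts were taken as deposited, with groups from the labels. For each comparison, genes were kept by filterByExpr in edgeR 4.0.16 (R 4.3.3; minimum count 10, minimum total 15), library sizes were scaled by TMM and groups of that comparison alone were fitted with the quasi-likelihood test and Benjamini-Hochberg adjustment over all genes tested. The interaction subtracted the LN4K1 change from the LN2E1 primary tumor change. Called means an adjusted p under 0.05. The fit was checked on simulated counts. Ratios were tested by exact permutation in scipy 1.17.1, two-sided. Alternatives were DESeq2 1.42.0, other filters and size factors, all 5 groups in 1 fit, the replicate number as a block, other ratio offsets and leaving out each library. Members and lists were chosen with earlier results of these data known. Other pathway genes named are DEGs of their list, up to 4 in each direction, unless stated otherwise. Promoter windows came from RefSeq (GRCm38.p6).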

Additional observations from a re-analysis of the deposited data

Results flagged for a closer look

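Among 30 sets of 5 TIM libraries of 1 gene, 3 held a library far from its group by Dixon's criterion (gap over range above 0.710), where chance gives about 1 in 20. These were Il1a in lymph node TIM replicate 1 at 30.051 CPM, Il18 in primary tumor TIM replicate 3 at 104.31 CPM and Casp1 in LN4K1 lung TIM replicate 3 at 357.66 CPM. The change from marrow differed between LN2E1 primary tumors and LN4K1 lungs, by a tested interaction on the log2 scale, for Il1rn (1.9219), Il1r2 (1.4925), Il1rap (2.0572), Il1rl1 (9.5903), Il18 (0.69876), Casp1 (-0.81014) and Nlrp3 (1.242). Strain, tumor line, route and tissue cannot be told apart in these 7 differences.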

How the results depend on the processing

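Of the values recomputed under the alternatives, 1132 were kept. For a fold change or ratio this means the same direction and side of the threshold. For a count of members called it means only a similar size, so a kept count need not be equal. A further 109 values fell short of the threshold, 17 newly passed it, 21 counts moved in size and 10 values changed sign, and the cause was not tested. With all 5 groups in 1 fit, the members called were 5 DEGs in LN4K1 lungs and 3 of 10 between lymph node and primary tumor TIMs. DESeq2 gave 6 DEGs in LN4K1 lungs, shrunken or unshrunken; the shrunken fit was not run for the interaction. Correlations between the deviations of same-numbered libraries from their group means ran from -0.297 to 0.297 over 8016 genes. They cannot tell whether libraries with the same number came from the same mouse, and the main fits did not pair samples. With the replicate number as a block, DEGs among the members were 0 in primary tumors, 0 in lymph nodes and 0 in LN4K1 lungs, 1 member was called between lymph node and primary tumor TIMs, and the strain difference of Il1b was -0.041509 on the log2 scale. That of Il1rn was -0.00745 with all 5 groups. With an offset of 0.1 the log2 ratio of Il1a to Il1b in LN4K1 lungs shifted by -1.1638 (exact permutation, adjusted p = 0.245).

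Leaving out 1 library gave 0 to 4 DEGs in LN4K1 lungs, 2 to 5 calls between lymph node and primary tumor TIMs, 0 to 1 between strains and 4 to 8 for the interaction. The strain difference ran from -0.65 to 0.56 for Il1b, from -0.087 to 0.098 for Il1rn and from -0.12 to 0.041 for Il18, and the interaction of Il1b from -0.34 to 0.86. Log2 ratio shifts in primary tumors, lymph nodes and LN4K1 lungs ran from -2.28 to -1.996, -2.04 to -1.70 and -4.19 to -3.42 for Il1rn to Il1b, from -4.35 to -3.89, -4.46 to -3.75 and -3.64 to -2.47 for Il1a to Il1b, from -5.36 to -5.13, -4.29 to -4.13 and -6.22 to -5.18 for Il18 to Il1b and from 2.63 to 3.37, 4.35 to 5.10 and 3.24 to 3.67 for Il1r2 to Il1r1. Between lymph node and primary tumor TIMs the shift ran from -0.35 to 0.36 for Il1a to Il1b and from 1.51 to 2.01 for Il1r2 to Il1r1. Without a marrow library the smallest adjusted p of a ratio was 0.0544 by exact permutation, a limit of the design. Marrow counts were low for Il1a (0 to 102), Il1r1 (11 to 129) and Il1rl1 (8 to 217), which limits how well their fold changes are known.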
